A study of Bos taurus with 24 samples.

Results

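The cytosolic ribosomal proteins were taken from the exon count table as the rows whose symbol starts with RPL or RPS followed by a digit, together with RPLP0, RPLP1, RPLP2 and RPSA, and without the RPS6K kinases and RPS19BP1. The rule found 109 of the 24621 rows of the table, 70 of them with a name of the large (60S) subunit and 39 with a name of the small (40S) subunit. These 109 rows carried 83 distinct symbols, because 47 rows were numbered copies of 1 symbol (RPL12_1 and RPL12_2, for example), which the table counts separately. Of 78 symbols listed as the core of the ribosome, 75 had a row, and RPL22, RPL41 and RPS4X had none under that name. The table has a row named RPS4 instead of the last of these. Of the 109 rows, 1 had no count in any embryo and 14 stayed under 15 counts in every embryo.

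The ribosome is built from a large subunit, which joins amino acids, and a small subunit, which decodes the mRNA, and nearly every ribosomal protein is present as a single copy in each ribosome apart from the acidic proteins of the stalk. The mRNAs of these proteins begin with a tract of pyrimidines that places their translation under the control of TOR, and in an early embryo they are among the most abundant transcripts once the embryonic genome is active. A few members have a second gene that makes a closely related protein, such as RPL26L1 beside RPL26 or RPS27L beside RPS27.

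RNA was sequenced from 24 single early bovine (Holstein) blastocysts, the stage at which the fluid cavity first forms. The design asks how culture medium changes the embryo relative to development in the cow, and whether male and female embryos respond alike. The 8 in vivo derived embryos (named A here, 5 male and 3 female) came from superovulated cows. The 8 embryos of the serum-containing condition (B, 3 male and 5 female) were matured with 20% and cultured with 5% fetal bovine serum, and the 8 embryos of the serum-free condition (C, 5 male and 3 female) were matured with EGF and cultured with albumin, insulin, transferrin and selenium. All had the same sire, and those made in vitro were collected 6 to 7 days after insemination. Each library started from 1 ng of the RNA of 1 embryo, so values are shares of an embryo's mRNA, and in a whole embryo fewer cells of a type and less RNA per cell cannot be told apart. The labels name neither the lane, the donor cow nor the in vitro experiment of an embryo, so these cannot be told apart from the spread within a group.

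Each embryo had 3253051 to 9000447 exon counts. DDX3Y, on the Y chromosome, had 101 to 902 counts in male and 0 to 2 in female embryos, which matched the labelled sexes. Among 8 trophectoderm markers, KRT8 and KRT18 were abundant while CDX2 reached at most 2.46 CPM (the exon counts scaled to a common library size) in any embryo, and of 6 hypoblast markers SOX17 and FOXA2 were at or near 0 throughout. The summed trophectoderm markers ran from 7486 to 14699 CPM in vivo, 316 to 5158 in serum-containing and 5010 to 27972 in serum-free medium. The summed hypoblast markers ran from 342 to 591, 27.0 to 233 and 128 to 406 CPM, and the 5 inner cell mass markers from 225 to 300, 201 to 368 and 139 to 423 CPM. The embryos of serum-containing medium therefore lay apart in the trophectoderm and hypoblast sums, below every in vivo derived embryo. The trophectoderm sum followed mostly KRT8 (mean 8998 CPM in vivo and 1094 CPM with serum) and KRT18 (1828 and 291 CPM). The transcription factors GATA2 and GATA3 were called lower with serum as well (edgeR adjusted p 0.00175 and 0.0124). Their log2 fold changes of in vivo over serum were 1.98 and 1.88. TFAP2C (205 and 256 CPM) and TEAD4 (32.8 and 54.2 CPM) had higher means with serum and were not called. The part of these markers in the differences given for ribosomal protein genes was not tested. The sums for cumulus and granulosa markers reached 53.3 CPM and those for sperm markers 14.0 CPM. The 7 rows of oviduct, uterus and blood markers summed to 18.6 to 38.0 CPM in vivo, 53.6 to 150 CPM with serum and 42.7 to 74.4 CPM without it. Of these, the haemoglobin rows HBA_1 and HBA_2 were called higher than in vivo in both media (edgeR adjusted p 0.00452 and 0.000327 with serum, 0.0249 and 0.0367 without). The 9 oocyte markers summed to 5.74 to 16.1, 6.86 to 184 and 19.4 to 114 CPM, and OOEP, the only one tested, was called higher in both media (0.00779 and 0.00212). The hypoblast marker PDGFRA was called lower than in vivo in both (0.00101 and 0.00952). The inner cell mass marker SOX2 was called higher with serum (8.34 CPM in vivo and 20.0 CPM, edgeR adjusted p = 0.0271) and not without it (0.233). POU5F1, lower with serum, and SALL4, higher with serum, were not called (0.0979 and 0.111). The part of these markers in the differences of ribosomal protein genes was not tested.

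Together the ribosomal protein rows held 6.14% ± 0.43 (SD, n = 8) of the exon counts in vivo. The share was 6.43% ± 1.12 in serum-containing medium and 6.32% ± 0.94 in serum-free medium. The lowest, median and highest embryo were at 5.45, 6.14 and 6.83% in vivo, 5.55, 5.94 and 8.73% in serum-containing medium and 5.29, 6.12 and 8.26% in serum-free medium. The 3 groups overlapped nearly throughout, and their means differed by less than the SD of any group. What differed was the spread, which came largely from a few embryos: B1 (8.73%) and B7 (7.28%), both male, in serum-containing medium and C4 (8.26%), also male, in serum-free medium. In the paper's read summary, the serum males with the fewest exon fragments, by count B1 and B7, had the lowest mapped shares of all embryos. B1 (12390), B7 (12267), B2 (12348) and B5 (11735) had counts on fewer genes than any in vivo derived embryo (13136 to 14381). The shares of B2 (5.61%) and B5 (5.58%) were not high. The part of library quality in the spread was not tested. Without B1 the serum mean was 6.10% ± 0.68 (n = 7), and without C4 the serum-free mean was 6.04% ± 0.55 (n = 7). The large subunit rows held 3.46% ± 0.25, 3.55% ± 0.59 and 3.50% ± 0.48 and the small subunit rows 2.67% ± 0.19, 2.88% ± 0.54 and 2.82% ± 0.46 of the counts in the same order of groups, so both subunits had about the same share in each group.

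**Figure D1:**
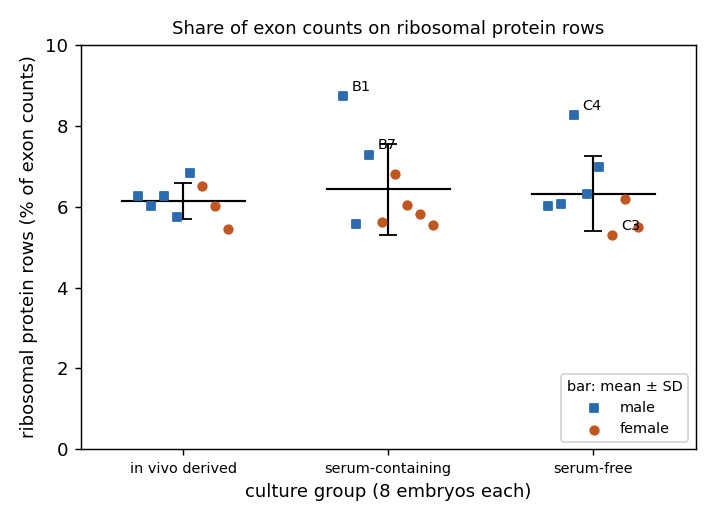
Percentage of the exon counts of each embryo that fell on the 109 ribosomal protein rows, by culture group (x axis) and sex (squares male, circles female), with the mean and SD of 8 embryos. The 3 means lie between 6.14 and 6.43%, and embryos B1, B7 and C4 stand above the rest.

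The members tended to be high or low together in an embryo. Of 89 rows that had at least 15 counts in every embryo of at least 1 of the 6 sex and culture groups, 85 were above their own median over the 24 embryos in B1, 82 in C4, 80 in B7 and 79 in C7, against 9 in C3 and 12 in A9. Over all genes the same share was 46.2 to 51.5% in every embryo. The coefficient of variation between the 8 embryos of a group, taken for each member, had a median of 11.2% in vivo, 27.5% with serum and 22.9% in serum-free medium, beside 29.0, 45.2 and 35.0% over all 8710 genes above the same limit. In vivo derived embryos were thus the most alike in their ribosomal protein mRNAs, as they were by the median over all genes. Since the members tended to move together, the numbers that follow are not independent counts. Of 89 members, 82 varied more in serum-containing medium and 79 more in serum-free medium than in vivo. These numbers were 80 with a median of 21.9% without B1, and 78 with a median of 18.5% without C4. The like count over all genes is not given, and their median was also larger in both media than in vivo. The steadiest member in vivo was RPL28, a large subunit protein, with a coefficient of variation of 5.68%.

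**Figure D2:**
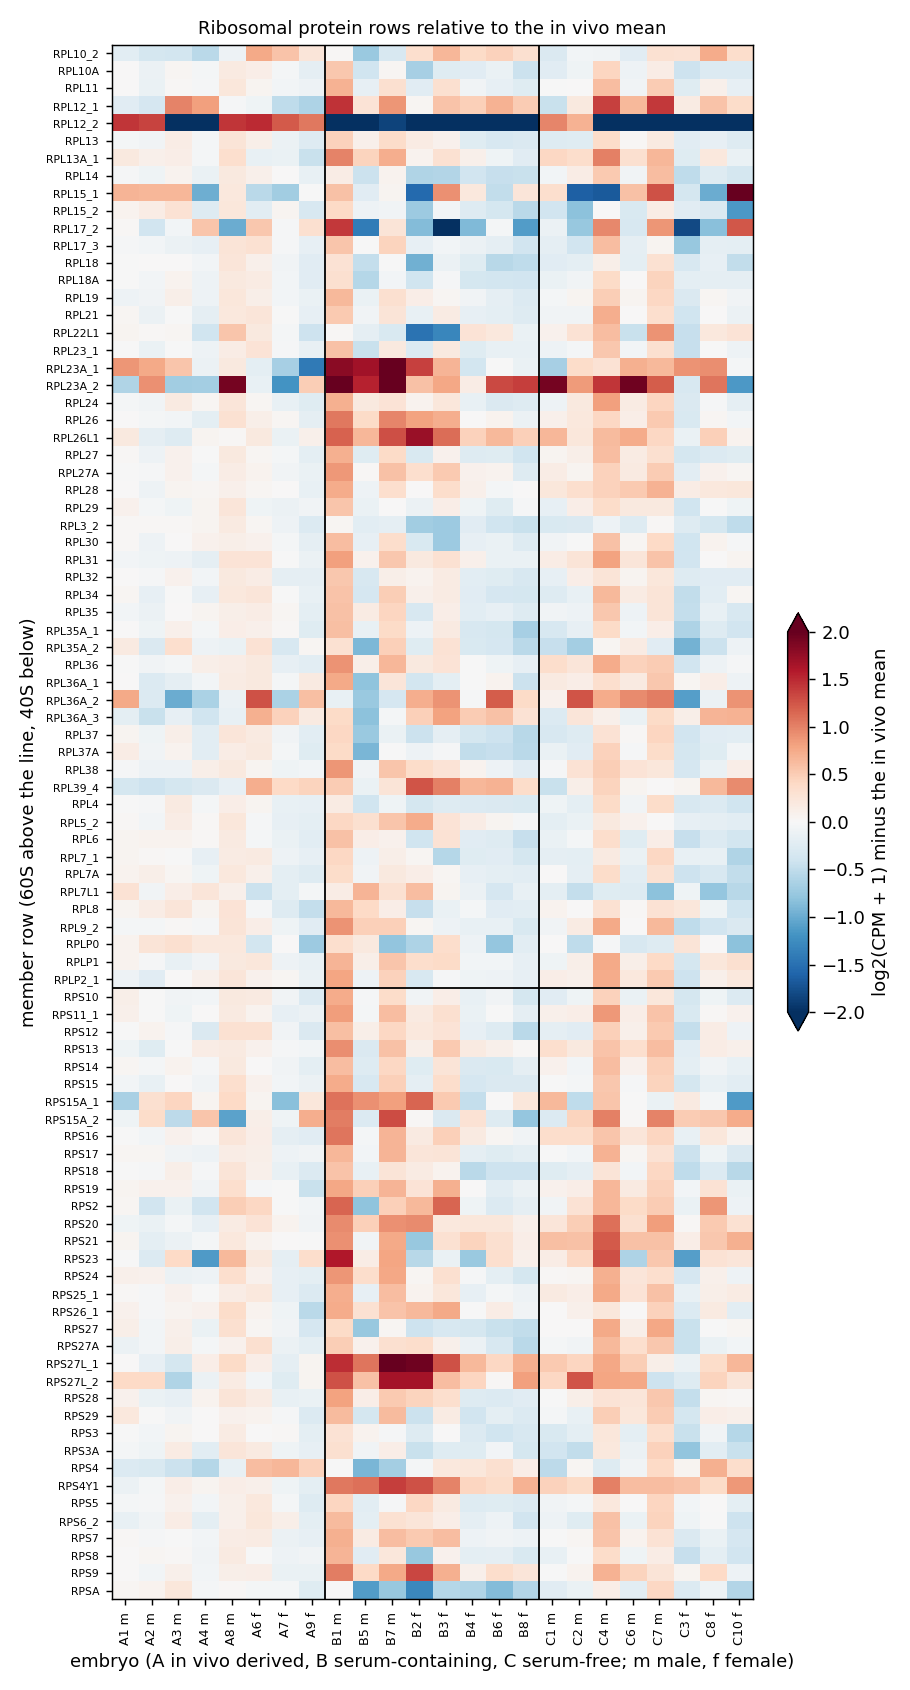
Level of each of 89 ribosomal protein rows (y axis, large subunit above the line and small subunit below) in each of 24 embryos (x axis, m male, f female), as log2(CPM + 1) minus the in vivo mean of the row, with colours ending at -2 and 2. The columns of B1, B7, C4 and C7 are mostly red and that of C3 mostly blue, while the A columns are pale apart from RPL12_2 and a few weakly counted copies.

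Between in vivo derived embryos and embryos from serum-containing medium, 10 ribosomal protein rows were called. Of 85 members tested, 3 were higher in vivo (RPL12_2, RPSA and RPL3_2), where 13.4% of all 7339 genes were called in that direction, and 7 were higher in serum-containing medium (RPS4Y1, RPS27L_1, RPL26L1, RPS9, RPS20, RPL26 and RPL23A_1), where 14.8% of all genes were called. A change of at least 2-fold was called for 4 members (RPL12_2, RPS27L_1, RPL26L1 and RPL23A_1), beside 13.8% of all genes. The members called were 3.53 and 8.24% of those tested in the respective directions. The groups differ in their numbers of males and females, and with sex as a covariate 3 members were higher in vivo (13.5% of all genes) and 16, or 18.8% of the members, in serum (15% of all genes), so the place of the members relative to all genes in the latter direction depended on this choice. With library totals alone as the scaling the split was 2 higher in vivo and 15 higher in serum, and without B1 it was 8 and 7. The median log2 fold change of in vivo over serum was -0.08 for the members and -0.01 for all genes, with -0.03 for the large and -0.18 for the small subunit. The median of the members was -0.01 without B1 and -0.14 without A8.

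RPS4Y1, a copy of the small subunit protein RPS4, had the smallest p among the members. Its level was 305 CPM in the lowest, 350 in the median and 384 in the highest in vivo derived embryo, and 451, 708 and 910 CPM in serum-containing medium. The groups did not overlap, and the log2 fold change of in vivo over serum was -0.95 ± 0.15 (SE; adjusted p = 0.000323, edgeR quasi-likelihood test). Despite its name, the gene list of the study places this row on chromosome 23. It was counted in both sexes at similar levels, 357 ± 27.5 CPM in 5 male and 335 ± 34.1 CPM in 3 female in vivo derived embryos. The row RPS4, its counterpart, was at 916 ± 327 CPM in vivo and 845 ± 228 CPM in serum-containing medium and was not called (log2 fold change 0.12 ± 0.22, adjusted p = 0.699).

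RPS27L, a relative of the small subunit protein RPS27 that is known as a target of p53, was counted on RPS27L_1 at 75.9, 99.2 and 127 CPM in the lowest, median and highest in vivo derived embryo and at 130, 221 and 406 CPM in serum-containing medium. No serum embryo was as low as the highest in vivo derived embryo, and the log2 fold change was -1.30 ± 0.22 (adjusted p = 0.000596, edgeR). Its partner RPS27 did not pass the test and had the opposite sign (626 ± 83.6 CPM in vivo and 521 ± 141 CPM in serum, log2 fold change 0.27 ± 0.15, adjusted p = 0.178).

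RPL26L1, the second gene for the large subunit protein RPL26 at the rim of the exit tunnel, was at 66.6, 81.8 and 91.7 CPM in vivo and at 110, 151 and 267 CPM in serum-containing medium, again without overlap (log2 fold change -1.01 ± 0.19, adjusted p = 0.000919, edgeR). Here the partner moved the same way. RPL26, known for binding the p53 mRNA, was at 287, 327 and 409 CPM in vivo and 305, 488 and 686 CPM in serum, with groups that overlapped and a smaller change (-0.54 ± 0.17, adjusted p = 0.0256).

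The other members that were higher in serum-containing medium overlapped with the in vivo group. RPS9, a small subunit protein that helps keep decoding accurate, was at 139, 150 and 168 CPM in vivo and 164, 226 and 388 CPM in serum (log2 fold change -0.67 ± 0.17, adjusted p = 0.0069, edgeR). RPS20, a protein of the small subunit head, was at 885, 954 and 1202 CPM in vivo and 1061, 1273 and 1912 CPM in serum (-0.54 ± 0.15, adjusted p = 0.0127). RPL23A_1, at the exit tunnel, had wide spreads of 33.2 to 166 CPM in vivo and 69.1 to 522 CPM in serum and was near the threshold (-1.11 ± 0.40, adjusted p = 0.0443), and its call was kept in 7 of the 16 fits that left out 1 embryo, with adjusted p up to 0.109.

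RPSA, a small subunit protein known also as the laminin receptor, was the member with the most counts that changed. It was at 2905, 3401 and 3991 CPM in vivo, at 1399, 2134 and 3448 CPM in serum-containing medium and at 2289, 3030 and 4543 CPM in serum-free medium. Of the 8 serum embryos 7 were below every in vivo derived embryo and B1 was not, and the log2 fold change of in vivo over serum was 0.69 ± 0.15 (adjusted p = 0.00278, edgeR). RPSA was also higher in serum-free than in serum-containing medium (serum over serum-free -0.59 ± 0.18, adjusted p = 0.0293), while in vivo derived and serum-free embryos were not called apart (0.10, adjusted p = 0.678). RPL3_2, a large subunit protein at the peptidyl transferase centre, was 1772, 2176 and 2422 CPM in vivo and 1290, 1724 and 2180 CPM in serum. Its change of 0.35 ± 0.12 was the smallest called (adjusted p = 0.0345), and the call was kept in 4 of the 16 fits without 1 embryo, with adjusted p up to 0.0994.

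**Figure D3:**
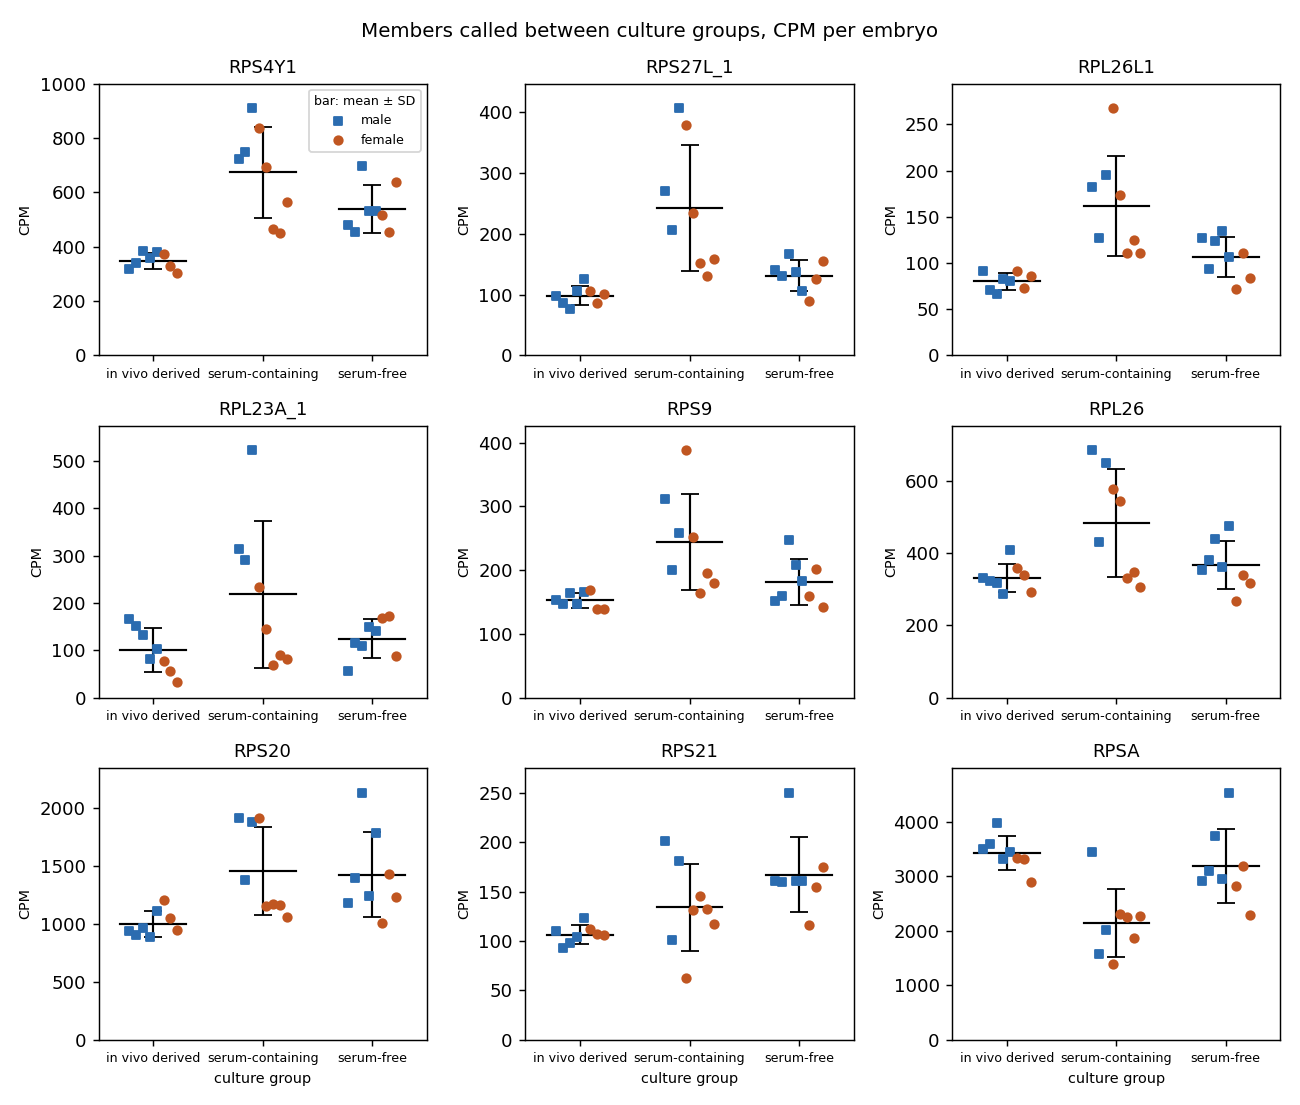
CPM of 9 ribosomal protein rows that were called between culture groups, in each of 8 embryos per group (squares male, circles female), with the mean and SD and y axes from 0. RPS4Y1, RPS27L_1 and RPL26L1 show no overlap between in vivo derived embryos and embryos from serum-containing medium, and RPSA is lowest in serum-containing medium.

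The largest fold change belonged to RPL12_2, 1 of the 2 counted rows of RPL12, a large subunit protein at the base of the stalk. In vivo derived embryos had 7.12, 428 and 491 CPM in the lowest, median and highest embryo, embryos from serum-containing medium 5.78, 17.7 and 47.5 CPM and those from serum-free medium 8.97, 20.0 and 345 CPM. The log2 fold change of in vivo over serum was 4.06 ± 0.71 (adjusted p = 0.000631, edgeR), but the groups overlapped, because A3 (7.12 CPM) and A4 (13.9 CPM) were as low as the serum embryos, and C1 (345 CPM) and C2 (283 CPM) were nearly as high as the other in vivo derived embryos. Against serum-free medium the row was not called (1.88 ± 0.83, adjusted p = 0.184).

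The rows of RPL12 differed in their split more than in their sum. RPL12_2 held 56.8 to 61.6% of the counts of both rows in 6 of the 8 in vivo derived embryos, 56.3% in C1 (95% exact interval 54.6 to 58.0%) and 40.3% in C2 (38.5 to 42.1%). It held 0.967% in A3 (0.678 to 1.34%), 2.11% in A4 and at most 6.59% (5.62 to 7.67%, in B7) in every other embryo. These intervals cover counting error only. RPL12_1 was at 238 to 360 CPM in the 6 in vivo derived embryos with much RPL12_2 and at 729 and 646 CPM in A3 and A4. Added together, the rows gave 732 ± 84.6 CPM in vivo, 601 ± 199 CPM with serum and 667 ± 212 CPM in serum-free medium (SD, n = 8 each), which overlap. The split thus fell into 2 kinds of embryo that did not follow the groups exactly, and with the rows of a symbol added before the fit the count of members higher in vivo was 2.

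**Figure D4:**
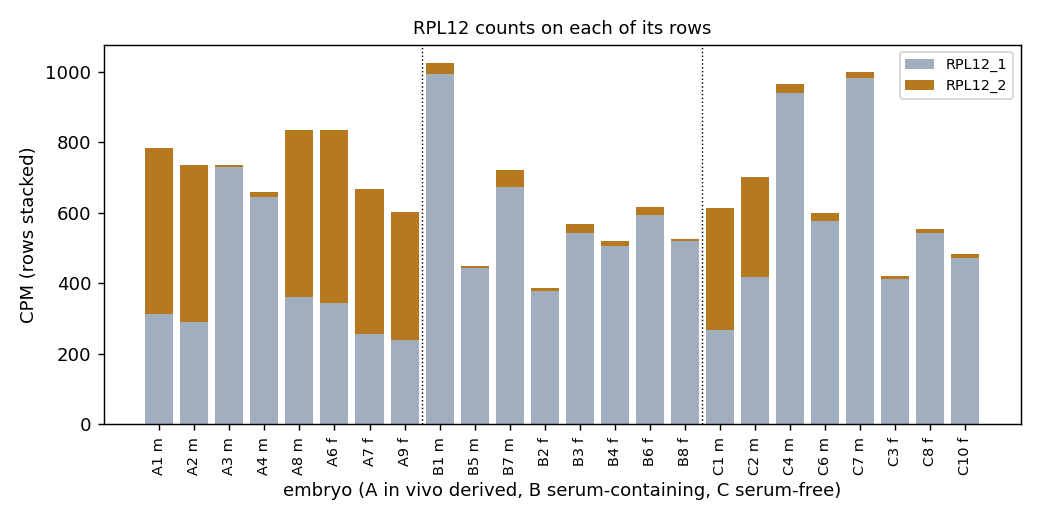
CPM of RPL12_1 (grey) and RPL12_2 (brown) stacked for each of 24 embryos (x axis, m male, f female), with dotted lines between the culture groups. RPL12_2 is a large part of the bar in A1, A2, A8, A6, A7, A9, C1 and C2 and a thin one elsewhere.

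A like split was seen in 1 embryo for RPL15, a large subunit protein, which is named here after its values were seen. RPL15_1 held 32.8% of the counts of RPL15_1 and RPL15_2 in C10 (95% exact interval 30.7 to 35.1%) and at most 1.99% in the other 23 embryos. The rows of 18 of the 21 symbols with numbered rows were much more lopsided, with over 95% of the counts on a single row, and the exceptions were RPL12, RPL23A and RPL36A. Because only reads that mapped to 1 place were counted, reads shared by near-identical copies are missing from both, and the levels of such rows are uncertain to that extent.

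In embryos from serum-free medium 4 of 85 members were higher than in vivo (RPS4Y1, RPS21, RPS20 and RPL28), with 3.38% of all 7314 genes called in that direction, and none was higher in vivo, with 2.45% of all genes called. By the unadjusted edgeR p under 0.05, 16 members (18.8%) differed in either direction, against 21.5% of all genes, and edgeR's exact test and DESeq2 each called 1 member higher in vivo. None of the changes reached 2-fold. The median log2 fold change of in vivo over serum-free was -0.09 for the members and -0.00 for all genes, and for the members -0.03 without C4 and -0.15 without C3.

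RPS4Y1 was again the member with the smallest p, at 453, 523 and 698 CPM in the lowest, median and highest serum-free embryo, above all in vivo derived embryos (305 to 384 CPM; log2 fold change -0.63 ± 0.11, adjusted p = 0.0017, edgeR). RPS21, a small protein of the 40S subunit, was at 93.0, 106 and 124 CPM in vivo and 116, 161 and 251 CPM in serum-free medium (-0.66 ± 0.13, adjusted p = 0.00485). It overlapped between these groups by its lowest serum-free embryo, and was not called against serum-containing medium (62.3, 132 and 201 CPM, adjusted p = 0.19). RPS20 was at 1007, 1315 and 2130 CPM in serum-free medium, higher than in vivo by about as much as in serum-containing medium (-0.52 ± 0.13, adjusted p = 0.0277). RPL28 was at 287 to 341 CPM in vivo and 354 to 517 CPM in serum-free medium, without overlap (-0.37 ± 0.10, adjusted p = 0.0285), and lost its call without A2 (adjusted p = 0.0536), as did RPS20 (0.051). The count of members higher in serum-free medium was 2 without A2 and 8 without C3. The in vivo derived embryos are shared by both of these comparisons.

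Between the media themselves 3 of 86 members were called: RPS27L_1 and RPL7L1 were higher in serum-containing medium, with 8.29% of all 7181 genes called in that direction, and RPSA was higher in serum-free medium, with 8.02% called. RPS27L_1 was at 89.7, 134 and 167 CPM in serum-free medium (log2 fold change of serum over serum-free 0.88 ± 0.23, adjusted p = 0.0179, edgeR). RPL7L1, a relative of the large subunit protein RPL7 that acts in the assembly of the large subunit, was at 255, 346 and 515 CPM in serum and 181, 251 and 304 CPM in serum-free medium (0.58 ± 0.17, adjusted p = 0.0283). RPL7_1 itself differed little (1250 ± 270 and 1262 ± 269 CPM, adjusted p = 0.921). All 3 called members overlapped between the media, and the call of RPSA was lost without C4 (adjusted p = 0.0588). With library totals alone, or with scaling computed without the members, the split was 4 and 1.

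Of RPLP0, RPLP1, RPLP2, RPSA, RPL5, RPL11, RPS6 and RPS27A, listed for their known roles, RPSA alone was called in the 3 comparisons of all embryos. In the acidic stalk, which recruits the translation factors, RPLP0 was at 1943 ± 428, 1726 ± 557 and 1682 ± 379 CPM (in vivo, serum-containing medium, serum-free medium). RPLP1 was at 655 ± 68.9, 779 ± 167 and 760 ± 176 CPM and RPLP2_1 at 419 ± 43.7, 447 ± 132 and 492 ± 115 CPM. Adjusted p for these was 0.178 to 0.956 over the 3 comparisons of all embryos.

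RPL5_2 and RPL11 join the 5S rRNA and can hold back MDM2. RPL5_2 was at 747 ± 73.7, 936 ± 171 and 709 ± 76.3 CPM, highest in serum-containing medium but over the threshold (in vivo over serum -0.32 ± 0.13, adjusted p = 0.0626, and serum over serum-free 0.39 ± 0.13, adjusted p = 0.0516, edgeR). RPL11 was at 542 ± 44.3, 579 ± 151 and 589 ± 135 CPM. Of the small subunit, RPS6_2, the target of S6 kinase, was at 847 ± 99.8, 897 ± 217 and 866 ± 220 CPM, and RPS27A, made as a fusion with ubiquitin, at 1751 ± 210, 1846 ± 434 and 1922 ± 510 CPM.

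The members with the most counts were RPSA, RPS3, RPS3A, RPL14 and RPL3_2 (CPM is not divided by gene length, so this is no order of molecules). RPS3, at the entry of the mRNA channel, was at 2569 ± 173, 2396 ± 398 and 2358 ± 526 CPM, and RPS3A at 2553 ± 308, 2370 ± 433 and 2254 ± 656 CPM. RPL14 was at 2070 ± 169, 1665 ± 354 and 2150 ± 629 CPM and just missed the threshold between in vivo and serum (0.32 ± 0.12, adjusted p = 0.0584). Each of these had its smallest SD in vivo.

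Among the other second copies, RPL22L1, whose partner RPL22 has no row, was at 396 ± 88.1, 327 ± 123 and 462 ± 148 CPM and was not called. RPL10L, RPL3L and the minor rows of RPL39, RPL3, RPL5, RPL7 and RPLP2 were near 0, with at most 11.4 CPM for RPL10L and at most 1.98 CPM for the rest. Of the 5 tested rows listed as second copies, 3 were higher in serum-containing medium than in vivo (RPS4Y1, RPS27L_1 and RPL26L1, 14.8% of all genes), 1 in serum-free medium (RPS4Y1, 3.38% of all genes), and 2 were higher in serum-containing than in serum-free medium (RPS27L_1 and RPL7L1, 8.29% of all genes).

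When male embryos were compared alone, more members were higher in serum-containing medium. Of 88 members, 12 were higher in the 3 serum males than in the 5 in vivo males, with 9.19% of all 7762 genes called in that direction, and none was higher in vivo, with 9.77% called. At an unadjusted p under 0.05, 32 members (36.4%) and 34.1% of all genes differed. A 2-fold change was called for 4 members (RPS4Y1, RPS27L_1, RPL23A_1 and RPL26L1), beside 13.3% of all genes. RPS20, RPL26, RPS9, RPL9_2, RPS19, RPL13A_1, RPS24 and RPS15A_1 made up the rest with 1.44- to 1.78-fold changes; RPL9_2, RPS19, RPL13A_1, RPS24 and RPS15A_1 are named after their values were seen.

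In males 16 of 88 members were on the in vivo side, and the median log2 fold change was -0.30 for the members against -0.01 for all genes. This rested in large part on B1: without it the median was -0.08, 33 of 88 members were on the in vivo side and 9 were called. Without B5 the median was -0.51. The low mapped shares of B1 and B7 given above limit this comparison too. The count was 7 without A1, 6 without A2, 37 without B5 and 5 without B7. RPS4Y1, RPS27L_1, RPL23A_1, RPL26L1 and RPS20 stayed called in all 8 fits that left out 1 embryo. RPS4Y1 was at 320 to 384 CPM in the in vivo males and 723 to 910 CPM in the serum males.

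In male embryos from serum-free medium 3 of 87 members were higher than in vivo (RPS21, RPS4Y1 and RPS20, adjusted p 0.0355, 0.0397 and 0.0414), with 1.76% of all 7662 genes called in either direction. All 3 calls were lost when any of A1, A2, A3, A4, A8, C2, C4 or C6 was left out. The median log2 fold change of the members was -0.24, and -0.11 without C4, against -0.02 for all genes.

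In females the only member called against either medium was RPL12_2, of 88 against serum-containing medium (0.418% of all 8138 genes called) and of 86 against serum-free medium (0.304% of all 8211 genes called). It was at 364 to 491 CPM in the 3 in vivo females, 5.78 to 24.8 CPM in the 5 serum females and 8.97 to 12.6 CPM in the 3 serum-free females (adjusted p = 0.00353 and 2.64e-06, edgeR). The call against serum-free medium was kept in 7 of 8 alternative fits (adjusted p up to 0.194). RPL12_1 went the other way there, with means of 279 CPM in vivo and 475 CPM, without overlap but not called (adjusted p = 0.141, edgeR). RPS4Y1 kept its direction without overlap but was not called in females (log2 fold change -0.87, adjusted p = 0.12, and -0.68, adjusted p = 0.156). The median of the members was 0.01 against serum-containing medium, with -0.11 without A6 and 0.07 without B3, so its sign was not stable. It was 0.10 against serum-free medium, with 0.02 without A6 and 0.18 without C8.

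Whether the effect of culture differed between the sexes was tested by the interaction. No member was called, of 89 for serum-containing and 88 for serum-free medium, and neither was any other gene (0% of 8446 and 0% of 8425). At an unadjusted p under 0.05 there were 7 (7.87%) and 13 members (14.8%), against 5.16 and 6.59% of all genes, the smallest adjusted p among the members was 0.741 and 0.669, and DESeq2 called none. The difference between the male and female counts above is therefore not shown to be one between the sexes.

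Between male and female in vivo derived embryos, 4 of 86 members were higher in females (RPS4, RPL39_4, RPL10_2 and RPL36A_3), with 0.954% of all 7963 genes called in that direction, and none was higher in males, with 0.301% called. At an unadjusted p under 0.05, 10 members (11.6%) and 13.5% of all genes differed, and DESeq2 called 6 and the exact test 5 in either direction. The gene list of the study places all 4 rows on the X chromosome. In the RefSeq table for the later assembly ARS-UCD2.0, which matched 81 of the 83 symbols, 4 ribosomal protein genes are X-linked, namely RPL10, RPL36A, RPL39 and RPS4X, for which RPS4 is listed as a synonym.

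RPS4 was at 584, 642, 703, 721 and 780 CPM in the 5 in vivo males and 1190, 1337 and 1372 CPM in the 3 in vivo females (log2 fold change of male over female -0.93 ± 0.12, adjusted p = 0.00107, edgeR). RPL10_2, a late joining protein that lines the tRNA path, was at 771 to 1044 CPM in males and 1322 to 1889 CPM in females (-0.85 ± 0.14, adjusted p = 0.00491). No male reached a female level for either row.

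RPL39_4, a very short protein in the exit tunnel, was at 160 to 192 CPM in males and 284 to 357 CPM in females (-0.85 ± 0.13, adjusted p = 0.00385). RPL36A_3 was at 220 to 271 and 340 to 495 CPM (-0.74 ± 0.14, adjusted p = 0.0184). RPL36A_1, the row of that symbol with the most counts, was at 390 ± 46.5 CPM in males and 439 ± 38.3 CPM in females, which overlapped (adjusted p = 0.61). RPL36A_3 lost its call in 3 of 8 fits that left out an embryo (adjusted p up to 0.139), RPL10_2 in 1 (0.0502) and RPS4 and RPL39_4 in none. Without A6 2 members were called.

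The same rows were lower in males on average in both media, but were not called there. No member was called among 89 in serum-containing medium (0.173% of all 7534 genes called) or among 87 in serum-free medium (0.152% of all 7918), where 15 (16.9%) and 25 members (28.7%) had an unadjusted edgeR p under 0.05, against 6.24 and 8.01% of all genes. DESeq2 called 1 and 0, and the exact test 1 and 0. The log2 fold changes were -0.68 ± 0.26 (serum-containing) and -0.44 ± 0.22 (serum-free) for RPS4, -0.78 ± 0.24 and -0.53 ± 0.18 for RPL10_2, -0.62 ± 0.28 and -0.53 ± 0.24 for RPL39_4 and -0.64 ± 0.29 and -0.43 ± 0.21 for RPL36A_3. Adjusted p was 0.471 to 0.796. Only RPL10_2 in serum-containing medium (668 to 1136 CPM in males and 1399 to 1771 CPM in females) did not overlap between the sexes.

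**Figure D5:**
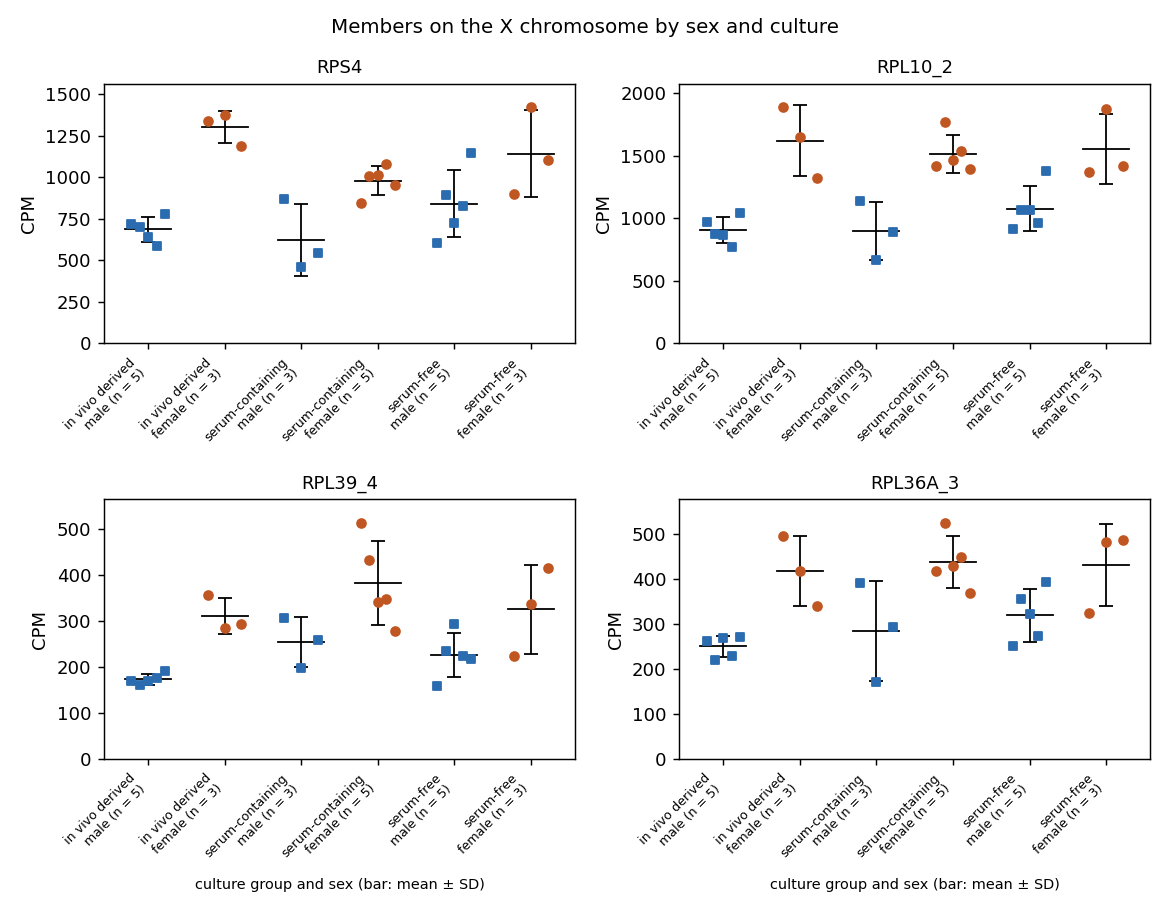
CPM of RPS4, RPL10_2, RPL39_4 and RPL36A_3 in each embryo by culture and sex (squares male, circles female), with the mean and SD of each group and y axes from 0. Female embryos are higher on average in every panel and culture, without overlap in vivo.

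The other members had medians above 0. The median log2 fold change of male over female was 0.06 in vivo (63 of 82 rows above 0), 0.40 with serum (84 of 85) and 0.35 in serum-free medium (80 of 83), while the 4 rows on X had medians of -0.85, -0.66 and -0.48. Within the family these 4 rows were lower by 0.91, 1.06 and 0.83 on the log2 scale than the others, in the same order of groups. They were picked by their calls in vivo, so the in vivo value of 0.91 is a description. Not all of the others were placed on a chromosome. They include RPL36A_1 and, in both media, RPL36A_2, of a symbol that RefSeq places on X. The weakly counted RPL36A_2 was the row below 0 with serum (-1.46). Over all genes the medians were 0.01, -0.00 and 0.02. Without B1 the median of all 89 members in serum-containing medium was 0.20 in place of 0.39, and without C4 that of 87 in serum-free medium was 0.25 in place of 0.34. In vivo the median of all 86 was 0.06, and 0.02 without A8 and 0.16 without A6, with 46 to 73 rows above 0 over the fits that left out an embryo.

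Expressed within each embryo, which removes the level of the whole family, the 4 rows held 2.98 to 3.41% of the ribosomal protein counts in the in vivo males and 5.79 to 6.19% in the in vivo females. They held 2.59 to 3.03% and 5.37 to 6.33% in serum-containing medium and 2.88 to 4.27% and 5.47 to 6.76% in serum-free medium. Every female was above every male on this scale, in each culture and over the 24 embryos. The rows were picked by their difference in vivo, so the in vivo part of this is a description, and the shares were not tested.

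The genes that build or accompany the ribosome were taken from lists of known genes. Of 42 tested genes of ribosome biogenesis none was higher in vivo and 17 were higher in serum-containing medium, where 14.8% of all genes were called, with a median log2 fold change of -0.49 (-0.01 over all genes). NPM1, the nucleolar chaperone nucleophosmin, was at a mean of 923 CPM in vivo, 2001 CPM with serum and 1236 CPM in serum-free medium (-1.12 ± 0.20, adjusted p = 0.000634, edgeR). NHP2L1 (-1.02 ± 0.16, adjusted p = 0.000326) and NOP10 (-1.04 ± 0.17, adjusted p = 0.000328), which belong to the small nucleolar ribonucleoproteins, and EIF6 (-0.74 ± 0.13, adjusted p = 0.000741), which keeps the large subunit from joining too early, were also higher in serum.

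In serum-free medium 2 of these 42 were higher than in vivo, NPM1 (-0.43 ± 0.08, adjusted p = 0.00412) and EIF6 (-0.55 ± 0.11, adjusted p = 0.00563), where 3.38% of all genes were called, and none was lower (2.45% of all genes), with a median of -0.08. Between the media 12 of 42 were higher in serum-containing medium (8.29% of all genes) and none in serum-free medium (8.02%), and all 42 had a positive log2 fold change.

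Of 12 genes listed for RNA polymerase I, which transcribes the large rRNAs, 3 were higher in serum-containing medium than in vivo (14.8% of all genes) and none lower (13.4%), including POLR1C (-1.25 ± 0.29, adjusted p = 0.00393, edgeR), a subunit it shares with RNA polymerase III. None differed between in vivo and serum-free medium. Of 16 other mRNAs with a pyrimidine tract at the start, 1 was higher in vivo and 3 in serum, and of 12 genes of TOR control 2 were higher in serum, beside 13.4% of all genes higher in vivo and 14.8% in serum. Of the 4 ribosomal genes that the naming rule leaves out, 3 were higher in serum, FAU_1 among them (the row for the ubiquitin-like fusion that gives the small subunit protein eS30, -1.11 ± 0.21, adjusted p = 0.00119). The lists were counted on all 16 embryos of a comparison, in which the trophectoderm markers differed as given above (4 of 6 tested higher in vivo than in serum, none called against serum-free medium), as did PDGFRA, OOEP and the HBA rows against both media. SOX2 was called against serum-containing medium only.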

How the data were processed

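The authors trimmed paired-end reads, mapped them to the UMD3.1 bovine genome with the CLC Genomics Workbench and deposited, for each gene and embryo, the raw count of exon reads with a single mapping place. The paper describes the reads of this library kit as not strand-specific. All value columns matched an embryo by name. No 2 embryos of a group differed by less than the sampling noise.

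Counts were tested with edgeR 4.0.16 in R 4.3.3 (TMM, quasi-likelihood test) over every gene with at least 15 counts in each embryo of at least 1 group compared, and p-values were adjusted by Benjamini-Hochberg over all genes tested, with calls at an adjusted p under 0.05. Standard errors were derived from the F statistic. Levels are CPM with TMM factors over 24 embryos. Exact intervals are Clopper-Pearson. The fits were tested on simulated data with known changes and 1 spread set for all genes. Of 4-fold changes, 98 to 100% were recovered. Of 2-fold changes, 82.7% were recovered for all embryos in vivo against serum-containing medium and 79.6% against serum-free medium. The share was 29.6% for males in vivo against serum-containing medium, 34.7% between the sexes in vivo and 28% between them in serum-containing medium. The interaction was simulated at 8-fold only (99.5% recovered). DESeq2 1.42.0 and edgeR's exact test were alternatives.

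Replicates are separate embryos. The members and lists were chosen with earlier results of these data known. Members were named when called with a 2-fold change in any comparison, when among the 5 smallest p in a direction in a comparison of all embryos, when listed for a known role or as a second copy, or when among the 5 with most counts; other lists name up to 4 genes. Same-numbered embryos of different groups did not deviate together (correlations of -0.14 to 0.09 and -0.07 to 0.07 over 7 pairs each), so numbers were not taken as pairs.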

Additional observations from a re-analysis of the deposited data

Results flagged for a closer look

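The gap of the outermost embryo to its neighbour, as a share of the range, was taken for 108 sets of 8 embryos of a culture group. Each set was for 1 named member or for the summed share of the family. In 7 sets this gap was above the critical value of Dixon's test. Chance flags about 1 set in 20. RPSA was at 3448 CPM in B1 and at 1399 to 2310 CPM in the other serum embryos. RPS21 was at 251 CPM in C4 and at 116 to 175 CPM in the other serum-free embryos. RPL11 was at 636 CPM in A8 and at 492 to 560 CPM in the other in vivo derived embryos. The remaining 4 were weakly counted copies: RPL10_1 at 3.28 CPM in A1 (others 0 to 1.44) and 5.16 CPM in B1 (others 0 to 1.99), and RPL10L at 11.4 CPM in B2 (others 0 to 2.73) and 4.95 CPM in C6 (others 0 to 1.74).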

How the results depend on the processing

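Counts of members called depended on the fit more than their directions did: of 755 values for 38 named results under alternatives, 634 kept their direction and call, 121 kept the direction without the call and 0 reversed. Members higher in serum than in vivo numbered 7, and 11 with DESeq2, 15 with library totals, 16 with sex as a covariate. Members higher in vivo than in serum-free medium numbered 0, and 1 with the exact test or DESeq2, and those higher in serum-free medium 4, and 2 with a limit of 1 count or a single fit over 24 embryos. Between the media the 2 higher in serum became 4 with DESeq2, library totals, TMM without the members or sex as a covariate, 5 in the single fit and 1 with the limit of 1 count. The 1 higher in serum-free medium became 2 with the exact test, a limit of 15 counts in every embryo or the single fit, and 0 with the limit of 1 count, and the exact test and the limit of 15 gave 1 change of 2-fold in place of 0.

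For males against serum-free medium the 3 called became 9 with DESeq2 and 0 with the limit of 1 count or the single fit. For females the 1 called against serum-containing medium became 2 (exact test) and 4 (DESeq2, single fit), and against serum-free medium 3 (exact test), 4 (DESeq2, limit of 1 count) and 0 (single fit). Between the sexes the 4 called in vivo became 2 in the single fit, the 0 in serum-containing medium became 1 (exact test, DESeq2) and 3 (single fit), and the 0 in serum-free medium became 1 with the limit of 1 count. The causes were not tested. Without the numbered rows the family held 4.60, 4.74 and 4.74% of the counts (in vivo, serum-containing medium, serum-free medium).

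Leaving out 1 embryo at a time gave 2 to 8 members higher in vivo and 7 to 10 higher in serum, with 2 (without A3 or B7) to 6 (without B4 or B6) changed 2-fold. Against serum-free medium it gave 0 to 1 higher in vivo (1 without A6, C7 or C3), 2 to 8 higher in serum-free medium and 0 to 0 changed 2-fold. Between the media 3 embryos, chosen after seeing the data (B1, C4 and C3), were left out in turn, with 2 to 3 higher in serum, 0 to 2 higher in serum-free medium and 0 to 1 changed 2-fold; the group shares without B1 (6.10%) and C4 (6.04%) were also added then. Males gave 5 to 37 against serum-containing and 0 to 3 against serum-free medium, females 1 to 4 (4 without B2) and 1 to 1. Between the sexes the range was 2 to 5 in vivo, 0 to 1 in serum-containing (1 without B2) and 0 to 0 in serum-free medium, and 0 to 0 for both interactions.

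With the replicate block, 3 members were higher in serum and 2 in vivo, 2 were higher in serum-free medium than in vivo, and 0 in the serum-free comparison of males. Embryos with the same number share only that number, so this is no paired analysis. Groups of 3 to 5 embryos of a sex and uniquely mapped reads limit what these counts can show.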
